A study of Rattus norvegicus with 8 samples.

Results

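Caveolin-1, caveolin-2 and caveolin-3 (Cav1, Cav2, Cav3) and the caveolar neck ATPase Ehd2 were followed through 4 groups of H9C2 cells, a rat cardiomyoblast line from embryonic heart. The genes were taken by their feature IDs, which gives 4 of the 32258 features in the deposited table, and all 4 passed the filter on low counts that left 12407 genes for testing. The set was chosen by the exon read values of Cav2, which differed strongly between the groups. Those values are therefore given as a description with no test, while Cav1, Cav3 and Ehd2 were tested. These members, and the gene lists below, were also chosen with earlier results of these data known. Their tests and counts are therefore not independent of that choice.

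Transduction with pDC316 vectors lasted 2 days. The control group received YFP alone. The other groups received YFP fused to PPARα, as wild type (WT), with alanine at serine 280 so that the site resists phosphorylation (S280A), or with aspartate there as a phosphorylation mimic (S280D). PPARα is a lipid-activated nuclear receptor that drives genes of fatty acid use. All groups are the same cell line and all carry YFP, so the design holds no untransduced cells. The promoter of the vector and any added ligand were not given in the sources used here. Each group held 2 libraries of strand-specific poly(A) RNA. The labels do not say whether each came from its own culture, and the p-values then cover only the spread between these libraries, which may be technical.

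Caveolae are flask-shaped pits of the plasma membrane, abundant in muscle, endothelium and fat. Caveolins insert into the membrane as oligomers, with CAV1 as the main building block in most cells, CAV2 as its partner that needs CAV1 to reach the surface, and CAV3 as the muscle form. Cavins wrap the caveolin scaffold from the cytosol, and EHD2 forms rings at the neck that hold caveolae at the surface.

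Cav1 and Cav2 lie next to each other on rat chromosome 4. In the Rnor_6.0 coordinates of the table Cav2 spans 44573264 to 44580638 and Cav1 spans 44597123 to 44630200, a gap of 16.5 kb. Cav3 lies on the same chromosome at 144382945 to 144398917, and Ehd2 on chromosome 1 at 77847600 to 77865870. The table gives Cav1 and Cav2 3 exons each, Cav3 2 exons and Ehd2 6 exons, with 1 transcript per gene. The stretches before the start sites of the neighbouring pair are shown because their RNA levels parted in the data. They are RefSeq promoter sequences of the GRCr8 assembly, 250 bases up to the start site, on the plus strand. Capitals mark 2 searched motifs, the nuclear receptor half-site AGGTCA and the GC box GGGCGG, on either strand.
Cav2, chr4:46582431-46582680: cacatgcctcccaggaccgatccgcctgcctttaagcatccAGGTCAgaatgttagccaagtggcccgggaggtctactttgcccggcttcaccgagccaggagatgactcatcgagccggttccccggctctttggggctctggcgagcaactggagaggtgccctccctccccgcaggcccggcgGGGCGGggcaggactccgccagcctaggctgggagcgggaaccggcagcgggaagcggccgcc
Cav1 first start site, chr4:46606288-46606537: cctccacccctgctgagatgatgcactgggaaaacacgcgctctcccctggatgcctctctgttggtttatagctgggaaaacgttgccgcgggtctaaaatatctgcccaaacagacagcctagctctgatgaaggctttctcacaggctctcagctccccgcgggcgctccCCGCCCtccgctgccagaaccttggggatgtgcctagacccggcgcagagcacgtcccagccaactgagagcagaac
Cav1 second start site, chr4:46607722-46607971: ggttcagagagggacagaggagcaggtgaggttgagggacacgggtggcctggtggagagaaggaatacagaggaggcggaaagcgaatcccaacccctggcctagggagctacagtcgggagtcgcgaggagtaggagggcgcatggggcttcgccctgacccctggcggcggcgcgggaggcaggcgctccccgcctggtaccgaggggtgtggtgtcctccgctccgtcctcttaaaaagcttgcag

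In the Cav2 stretch AGGTCA began 209 bases before the start site and GGGCGG 63 bases before it, both on the plus strand. The first Cav1 start site had GGGCGG on the minus strand, 77 bases before the start, and the second had neither. AGGTCA was absent from the Cav3 and Ehd2 stretches, and Ehd2 had 1 GGGCGG. Of 33469 promoter entries searched in the same way, 14.1% held AGGTCA and 30.5% held GGGCGG. The paired form with 1 base between the half-sites, AGGTCANAGGTCA, was in none of the 5 member stretches and in 17 of all entries, a share of 0.051%. A match is a description of letters in this window, and binding was not measured.

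Exon reads totalled 14018785 to 39526013 per library. Ppara stood at 74.4 and 59.5 CPM (exon reads relative to library depth, scaled by TMM) in the YFP libraries. In the 6 libraries with a receptor construct it stood at 12382 and 24134 CPM with WT, 17400 and 13736 with S280A, and 17911 and 17693 with S280D. The 2 WT libraries were thus the lowest and the highest of these. By the column headers, lane 1 held YFP replicates 1 and 2, S280A replicate 2 and S280D replicate 1, and lane 2 held the other libraries. A gene's level against its average rose or fell with exon length across the 12407 genes, with a Spearman rank correlation from -0.247 to -0.0648 in the YFP and S280A libraries and from 0.129 to 0.238 in the WT and S280D libraries. Genes are not independent replicates, and the part of this gradient in the values below was not tested beyond the offset for exon length. Of 13 cardiac markers Tnnt2, Gata4 and Mef2c reached 1 CPM in every library, and Nkx2-5 had reads in only 1 library, at 0.0911 CPM. Of 10 skeletal muscle markers only Acta1 did, and Chrna1 was at 0 in all. Summed markers of other cell types rich in caveolae stayed low, at 0.772 to 1.89 CPM for 5 endothelial genes and 0.119 to 0.319 CPM for 5 adipocyte genes. Summed markers of leukocytes (5 genes) were at 0.0805 to 1.55 CPM, with Ptprc at 0 in all libraries.

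Cav2 was the member whose level moved most. Its exon reads numbered 130 and 143 in the YFP libraries, 969 and 713 with WT, 327 and 180 with S280A, and 3262 and 2039 with S280D. Scaled for depth this gave 7.61 and 7.31 CPM with YFP, 48.4 and 42.5 CPM with WT, 23.0 and 14.5 CPM with S280A, and 78.9 and 92.8 CPM with S280D, in the order of the replicate numbers. The groups ordered as YFP, S280A, WT and S280D, and no neighbours in that order had overlapping libraries. Group means were 7.46 ± 0.217 CPM (SD, n = 2) in YFP, 18.7 ± 5.99 with S280A, 45.5 ± 4.20 with WT and 85.8 ± 9.88 with S280D. In bulk RNA such as this, fewer cells with a transcript and less transcript per cell cannot be told apart, here and for every gene below.

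**Figure D1:**
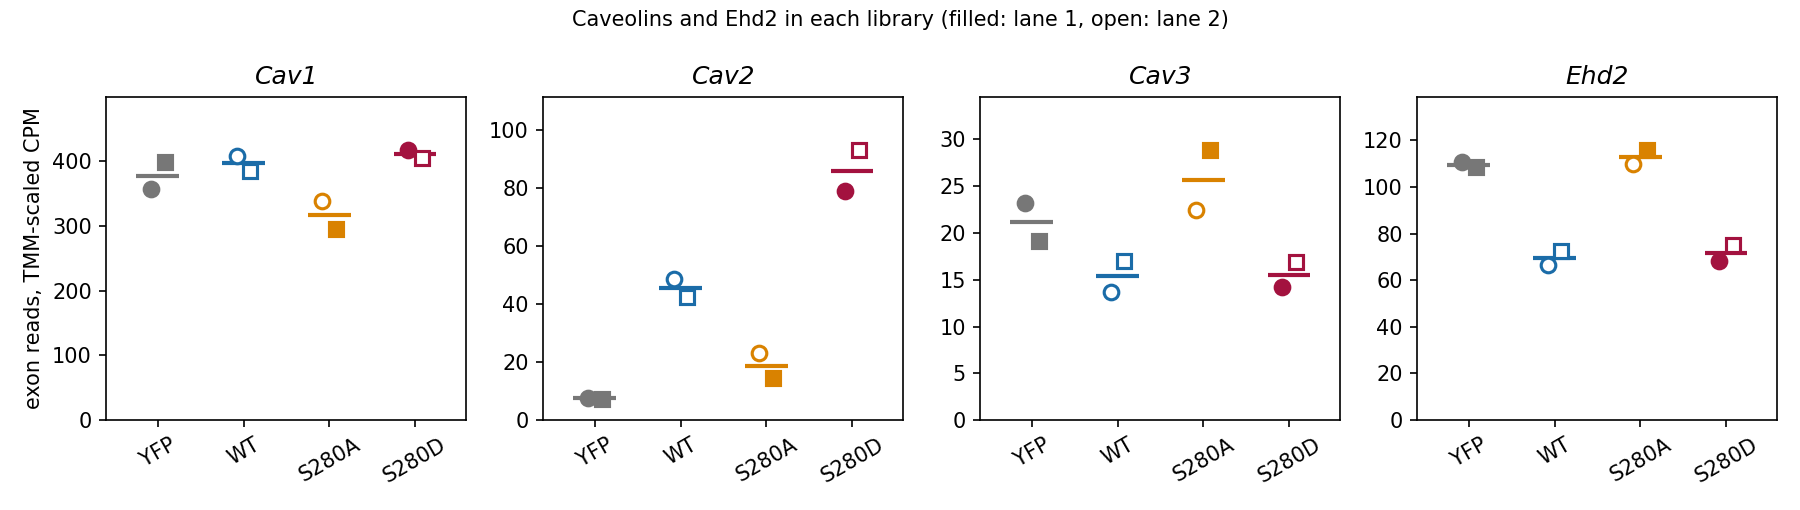
TMM-scaled CPM of exon reads (vertical axes, from 0) of Cav1, Cav2, Cav3 and Ehd2 in each library by construct (horizontal axes). Circles are replicate 1, squares replicate 2, lines group means, filled symbols lane 1 and open symbols lane 2; Cav2 climbs from 7.46 CPM with YFP to 85.8 CPM with S280D, while Ehd2 sits near 110 CPM with YFP and S280A and near 70 CPM with WT and S280D.

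Over YFP the fitted Cav2 level was 6.10-fold in WT (log2 2.61 ± 0.21, SE), 2.52-fold in S280A (1.33 ± 0.21) and 11.5-fold in S280D (3.52 ± 0.21). These values share the YFP libraries. Between constructs it was 2.42-fold lower in S280A than in WT (log2 -1.27 ± 0.19), 1.89-fold higher in S280D than in WT (0.92 ± 0.18) and 4.56-fold higher in S280D than in S280A (2.19 ± 0.20). Within lane 1 the order was YFP at 7.31 and 7.61 CPM, S280A at 14.5 CPM and S280D at 78.9 CPM. Within lane 2 it was S280A at 23.0 CPM, WT at 42.5 and 48.4 CPM and S280D at 92.8 CPM. No lane held both YFP and WT, so lane and group cannot be told apart among these 4 libraries alone. With lane as a covariate the log2 values were 2.18 for WT, 1.09 for S280A and 3.31 for S280D over YFP. With an offset for exon length they were 2.58, 1.35 and 3.49.

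The reads behind the Cav2 values were almost all unique, at 99.7% to 100% per library. Intron reads of Cav2 numbered 0 to 12 per library and were too few for the filter, so nothing can be said of its intron level at this depth. Exon-exon reads, which span a splice junction, made up 76 of 7763 Cav2 exon reads in all libraries together, or 0.979%. Genes with 3 exons and an exon length within 20% had a median share of 2.91%, and 21 of these 123 genes lay below Cav2. For Cav3 the share was 15.0%, above 121 of 124 genes with 2 exons and like length. This comparison was chosen after the values were seen.

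Cav1 was the most abundant caveolin per length, and its groups lay close together. Its libraries held 357 and 398 CPM with YFP, 408 and 385 CPM with WT, 338 and 296 CPM with S280A, and 417 and 405 CPM with S280D. The S280A libraries were the lowest, the S280D libraries lay above both YFP libraries, and the WT libraries overlapped both groups. In edgeR's quasi-likelihood test, with Benjamini-Hochberg adjustment over all genes tested, Cav1 did not pass over YFP in WT (log2 0.07 ± 0.12, SE, 95% interval -0.18 to 0.33, adjusted p = 0.691), in S280A (-0.25 ± 0.12, -0.51 to 0.00222, adjusted p = 0.433) or in S280D (0.12 ± 0.12, -0.13 to 0.38, adjusted p = 0.452). All adjusted p-values below come from edgeR unless DESeq2 is named.

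Between constructs Cav1 was 1.30-fold higher in S280D than in S280A (log2 0.37 ± 0.12, adjusted p = 0.0261). This call was lost without WT replicate 2 (adjusted p = 0.0569), S280A replicate 2 (0.195), S280D replicate 1 (0.146) or S280D replicate 2 (0.0785), with the exon length offset (0.0519) and with lane as a covariate (0.05). S280A against WT stood at log2 -0.32 ± 0.12 and did not pass (adjusted p = 0.0603), but passed in DESeq2 (0.0425), with no filter on low counts (0.0423), and without YFP replicate 1 (0.0449), YFP replicate 2 (0.0445) or S280A replicate 1 (0.0378). For S280D against WT the value was 0.05 ± 0.12 (adjusted p = 0.964). Cav1 had 85 to 393 intron reads per library. Scaled to all intron reads they were 67.2 and 74.1 CPM with YFP, 57.5 and 57.5 with WT, 45.5 and 49.9 with S280A, and 48.9 and 51.1 with S280D, so both YFP libraries were above all others. The share of intron features parted in this way was not counted. Per 100 exon reads Cav1 had 2.31 and 2.82 intron reads with YFP, 2.41 and 2.54 with WT, 2.10 and 2.31 with S280A, and 2.28 and 2.37 with S280D. By that ratio YFP overlapped the other groups. None of the 6 intron comparisons of Cav1 passed, with adjusted p of 0.142 to 1. S280A and S280D against YFP (log2 -0.57 ± 0.21 and -0.50 ± 0.20, adjusted p = 0.381 and 0.142) were the only ones with an unadjusted p under 0.05. Over all 12988 features tested on intron reads the share called was 2.02% for WT, 0.0154% for S280A and 5.35% for S280D against YFP, 0.00770% between S280A and WT, 0% between S280D and WT, and 4.54% between S280D and S280A.

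**Figure D2:**
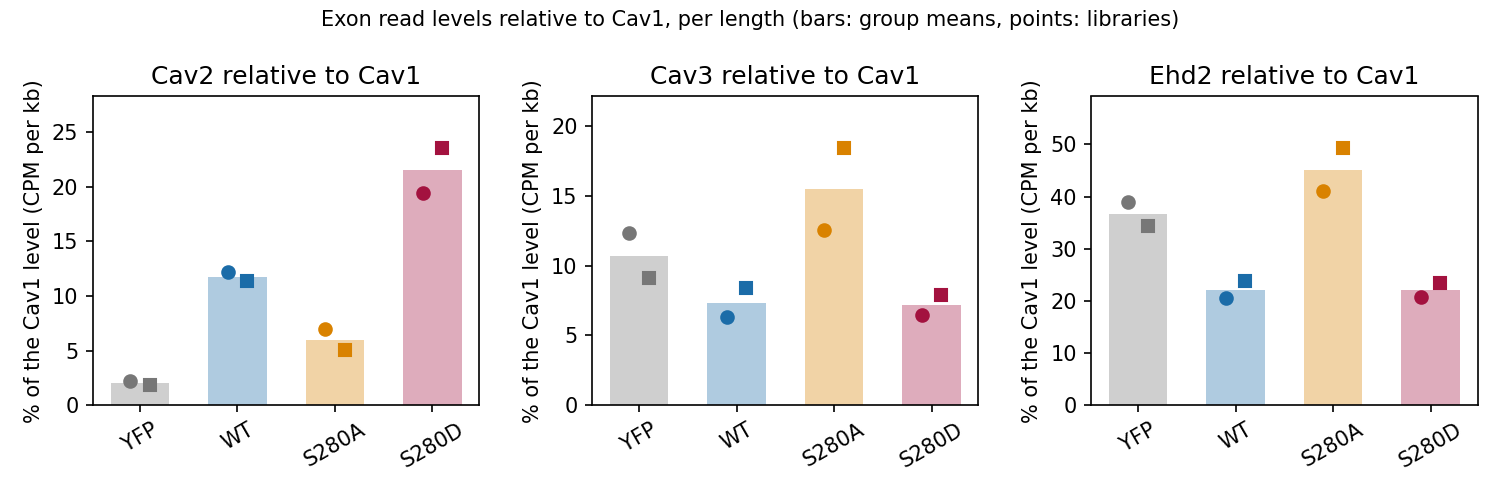
Exon read level per kb of exon length of Cav2, Cav3 and Ehd2 as a percentage of Cav1 in the same library (vertical axes, from 0), by construct. Bars are group means, circles replicate 1 and squares replicate 2; Cav2 goes from 1.89% to 2.19% of Cav1 with YFP to 19.5% to 23.6% in S280D, while Ehd2 is lower against Cav1 with WT and S280D.

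Per length the balance between the caveolins shifted with the Cav2 level. Cav2 per kb of exon was 2.19% and 1.89% of Cav1 per kb with YFP, 12.2% and 11.3% with WT, 6.99% and 5.04% with S280A, and 19.5% and 23.6% with S280D. The sum of the 3 caveolins per kb was 160 and 173 CPM per kb with YFP, 189 and 180 with WT, 158 and 143 with S280A, and 205 and 208 with S280D. Cav1 thus remained the main caveolin RNA in all 8 libraries, since Cav2 never exceeded 17.9% of that sum. These ratios use the Cav2 values that chose the genes and are a description only.

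Ehd2 was lower with WT and S280D than with YFP or S280A. Its libraries held 111 and 109 CPM with YFP and 110 and 116 CPM with S280A, against 66.5 and 72.7 CPM with WT and 68.2 and 75.0 CPM with S280D. Every YFP and S280A library lay above every WT and S280D library, a split whose share among all genes was not counted. Ehd2 fell 1.57-fold in WT against YFP (log2 -0.65 ± 0.12, adjusted p = 0.00605) and 1.53-fold in S280D against YFP (-0.61 ± 0.11, adjusted p = 0.00385). It was 1.62-fold higher in S280A than in WT (0.70 ± 0.12, adjusted p = 0.00768) and 1.58-fold lower in S280D than in S280A (-0.66 ± 0.11, adjusted p = 0.00261).

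For S280A against YFP the Ehd2 difference was log2 0.04 ± 0.11 (95% interval -0.21 to 0.29, adjusted p = 0.913), and for S280D against WT 0.04 ± 0.11 (-0.21 to 0.29, adjusted p = 0.969). The call for WT against YFP was lost without WT replicate 1 (adjusted p = 0.0885) and with lane as a covariate (0.132), where the log2 value was -0.69. S280D against YFP was lost without S280D replicate 1 (0.0663), and S280A against WT without WT replicate 1 (0.0867) or S280A replicate 2 (0.0946). S280D against S280A passed without each library in turn, at adjusted p of up to 0.0422. Within lane 1 Ehd2 stood at 109 and 111 CPM with YFP, 116 CPM with S280A and 68.2 CPM with S280D, and within lane 2 at 110 CPM with S280A, 66.5 and 72.7 CPM with WT and 75.0 CPM with S280D.

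Intron reads of Ehd2 passed the test in none of the 6 comparisons, with adjusted p of 0.705 to 1 and no unadjusted p under 0.05. They numbered 39 and 69 with YFP, 65 and 62 with WT, 37 and 38 with S280A, and 171 and 61 with S280D. Scaled to the intron reads of all genes they were 18.6 and 23.3 CPM with YFP, 19.0 and 21.8 with WT, 16.7 and 22.3 with S280A, and 21.3 and 14.8 with S280D, so all groups overlapped. For WT against YFP the intron difference was log2 -0.05 ± 0.29 with a 95% interval of -0.68 to 0.58, which holds the exon value of -0.65, and its adjusted p was 0.951. The intervals for S280D against YFP (-0.81 to 0.40) and against S280A (-0.72 to 0.55) held their exon values as well. For S280A against WT the interval was -0.72 to 0.58, which does not hold the exon value of 0.70. The difference between exon and intron values was not tested. Per 100 exon reads Ehd2 had 2.07 and 3.25 intron reads in YFP, 2.37 and 2.65 with S280A, 4.89 and 5.08 with WT, and 6.06 and 3.70 with S280D. Over all genes intron reads were 11.0% and 11.9% of exon and intron reads with YFP, against 14.2% to 15.8% with the receptor constructs, and their part in the ratio was not tested.

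Cav3, the muscle caveolin, was detected in every library at 274 to 589 exon reads. It stood at 23.2 and 19.2 CPM with YFP, 13.7 and 17.0 CPM with WT, 22.5 and 28.8 CPM with S280A, and 14.2 and 16.9 CPM with S280D. The WT and S280D libraries all lay below the YFP and S280A libraries, as for Ehd2. Per kb of exon Cav3 was above Cav2 in both YFP libraries (17.2 and 14.2 against 3.06 and 2.94 CPM per kb) and below it in both S280D libraries (10.5 and 12.5 against 31.7 and 37.3 CPM per kb).

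Cav3 was 1.67-fold higher in S280A than in WT (log2 0.74 ± 0.19, adjusted p = 0.0202) and 1.65-fold lower in S280D than in S280A (-0.72 ± 0.19, adjusted p = 0.0131). Over YFP it did not pass in WT (-0.47 ± 0.19, adjusted p = 0.107), S280D (-0.45 ± 0.19, adjusted p = 0.0914) or S280A (0.27 ± 0.19, adjusted p = 0.6), and S280D against WT stood at 0.02 ± 0.19 (adjusted p = 0.993). The call for S280A against WT was lost without WT replicate 1 (adjusted p = 0.188), without S280A replicate 2 (0.159) and with the lane covariate (0.0821). S280D against S280A was lost without S280A replicate 2 (0.115) or S280D replicate 1 (0.131). Cav3 had 1 to 7 intron reads per library, too few for a test.

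**Figure D3:**
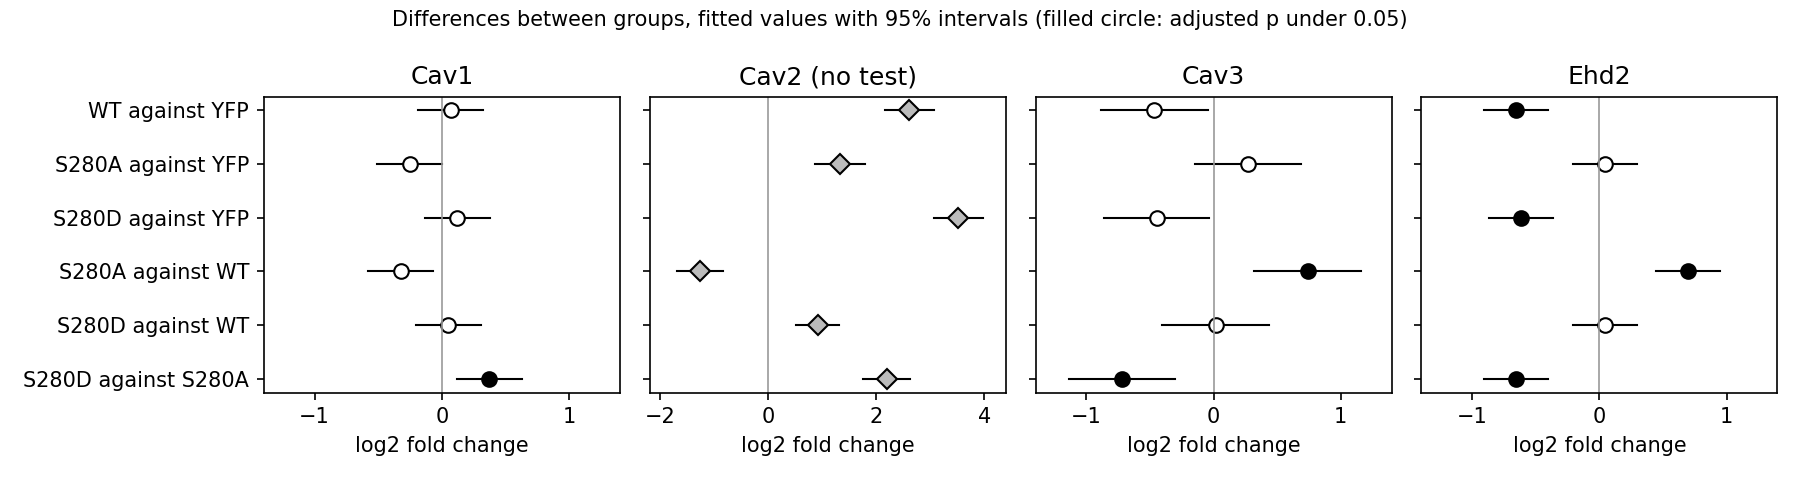
Fitted log2 fold changes (horizontal axes) of the 4 genes in the 6 comparisons (vertical axis), with 95% intervals as lines. Filled circles had an adjusted p under 0.05, open circles did not, and grey diamonds mark Cav2, which was not tested. The genes were chosen by the Cav2 values, so the Cav2 intervals are a description and their distance from 0 is not a test. The horizontal scale of Cav2 is wider, reaching 3.52 for S280D against YFP, while the other members stay between -0.72 and 0.74.

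Read against all genes, the calls of the 3 tested members were as follows. In WT against YFP 1 of 3 was called, lower, where 19.6% of all genes were called and 7.45% called lower. In S280D against YFP 1 of 3 was called, also lower, beside 30.7% of all genes and 13.7% lower. S280A against WT had 2 of 3 called, both higher, beside 26.0% and 10.1% higher. S280D against S280A had 3 of 3, 1 higher and 2 lower, beside 39.3% of all genes, 21.3% higher and 18.0% lower. Neither S280A against YFP nor S280D against WT called a tested member in edgeR or DESeq2, and none had an unadjusted p under 0.05. In each of these comparisons 0.0403% of all genes were called in edgeR, which is 5 genes.

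Groups whose libraries did not overlap were common among all genes. The shares below are for pairs of groups. The share of genes that part WT and S280D from YFP and S280A was not counted. Against YFP, both WT libraries were lower for Cav3 and Ehd2 (32.3% of all genes) and higher for Cav2 (32.0%). Both S280D libraries were lower than YFP for Cav3 and Ehd2 (35.7%) and higher for Cav1 and Cav2 (33.9%). Both S280A libraries were lower than YFP for Cav1 (19.9%) and higher for Cav2 (17.9%). Against WT, both S280A libraries were higher for Cav3 and Ehd2 (34.6%) and lower for Cav1 and Cav2 (35.2%), and both S280D libraries were higher for Cav2 alone of the 4 (19.4%, with 21.2% of genes lower). Against S280A, both S280D libraries were lower for Cav3 and Ehd2 (37.7%) and higher for Cav1 and Cav2 (36.6%).

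Cavins, the cytosolic coat proteins, were all 4 expressed, and their members did not move as 1 group. Cavin-1 (Ptrf in the table), which is needed for caveola formation, stood at 850 and 864 CPM with YFP, 558 and 581 with WT, 687 and 777 with S280A, and 530 and 576 with S280D. Every WT and S280D library was below every YFP and S280A library. Among all genes, 32.3% had both WT libraries and 35.7% both S280D libraries below YFP. Ptrf fell in WT (log2 -0.59 ± 0.11, adjusted p = 0.0082) and S280D (-0.63 ± 0.11, adjusted p = 0.0033) against YFP, and was higher in S280A than in WT (0.36 ± 0.11, adjusted p = 0.0378). Cavin-3 (Prkcdbp), a protein kinase C delta binding protein, also fell in WT (-0.51 ± 0.14, adjusted p = 0.0318) and S280D (-0.67 ± 0.14, adjusted p = 0.00682). Without WT replicate 1 the Ptrf call in WT was lost (adjusted p = 0.104), and without S280D replicate 1 the calls in S280D were lost for Ptrf (0.0635) and Prkcdbp (0.103). The Prkcdbp call in WT was lost without YFP replicate 1, WT replicate 1 or WT replicate 2, at up to 0.235. Ptrf in S280A against WT was lost without either WT library, S280A replicate 2 or either S280D library, at up to 0.236.

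Cavin-4 (Murc), the muscle cavin, was highest with S280D. Its YFP, WT and S280A libraries ranged from 8.86 to 11.5 CPM, and its S280D libraries stood at 15.5 and 16.6 CPM. Murc was higher in S280D than in YFP (log2 0.62 ± 0.18, adjusted p = 0.0238) and than in S280A (0.75 ± 0.18, adjusted p = 0.00938). The call over YFP was lost with the exon length offset (adjusted p = 0.0547), with lane as a covariate (0.107) and without YFP replicate 1, S280D replicate 1 or S280D replicate 2, with a highest adjusted p of 0.149, and that over S280A without S280A replicate 2 (0.079). Cavin-2 (Sdpr), which helps shape membrane curvature, had YFP libraries far apart at 24.2 and 45.1 CPM and was called only for S280D against S280A (0.74 ± 0.25, adjusted p = 0.035), a call lost without S280A replicate 2 or either S280D library, at up to 0.234. Against YFP 2 of 4 cavins were called in WT, both lower, and 3 of 4 in S280D, 1 higher and 2 lower. Among all genes 19.6% and 30.7% were called. The cavin calls between S280D and S280A were 4 of 4, with 2 higher and 2 lower, beside 39.3% of all genes called, 21.3% higher and 18.0% lower.

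**Figure D4:**
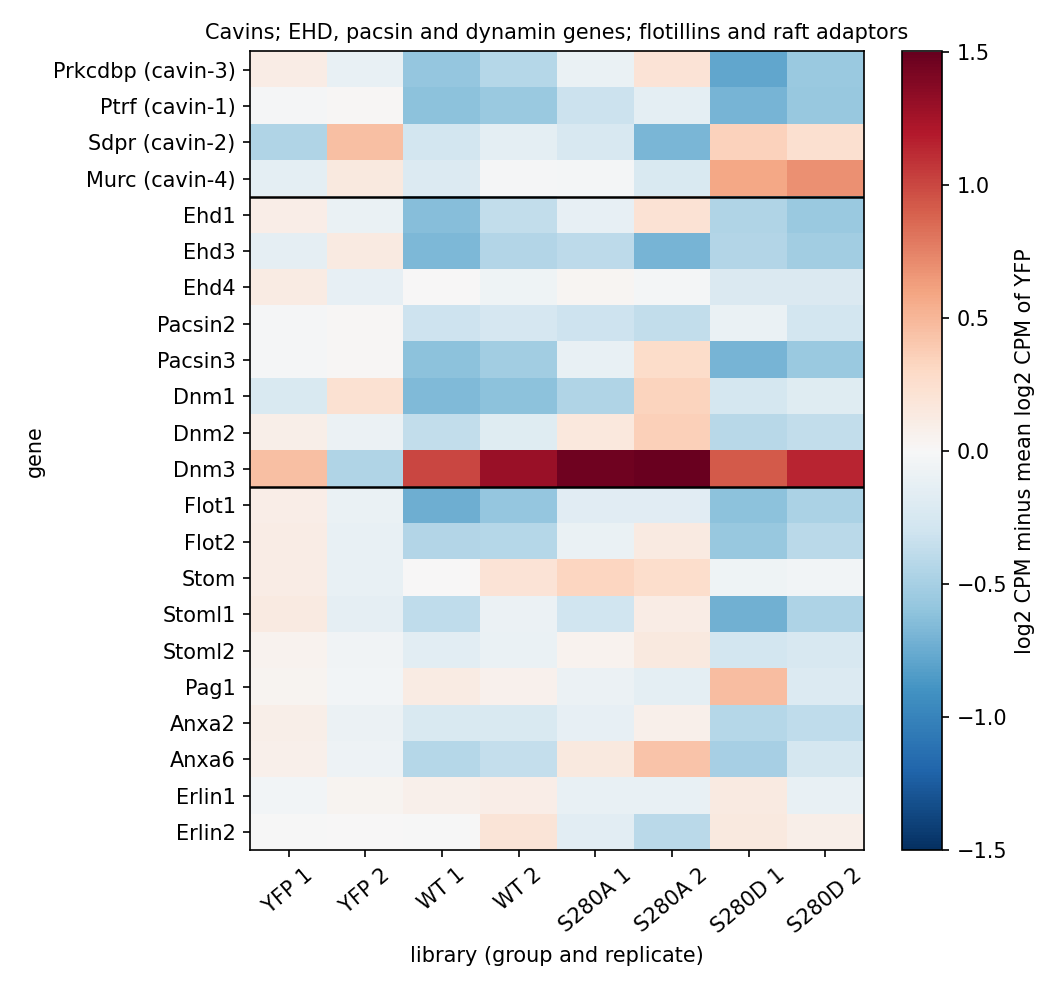
Heat map of 22 tested genes of the cavin, EHD, pacsin and dynamin families and of rafts (rows) in the 8 libraries (columns), as log2 CPM minus the mean log2 CPM of the YFP libraries. Red is above and blue below YFP on a scale of -1.5 to 1.5, and lines part the cavins, the EHD, pacsin and dynamin genes, and the flotillins; Ptrf, Prkcdbp, Pacsin3, Flot1 and Flot2 are blue in the WT and S280D columns, and Dnm3 is red in all 6 receptor columns.

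Of 9 further genes of the EHD ATPase, pacsin and dynamin families, 8 were tested. Pacsins bend membranes and dynamins sever them, and not all of these genes act at caveolae. Against YFP 1 was called higher and 1 lower in WT (25%), and 1 higher and 3 lower in S280D (50%). Among all genes 19.6% and 30.7% were called. Pacsin3, the muscle-enriched pacsin, stood at 49.2 and 50.2 CPM with YFP, 32.5 and 34.6 with WT, 46.1 and 60.2 with S280A, and 30.6 and 33.7 with S280D, so the WT and S280D libraries were again all lower. Both libraries were below YFP for 32.3% of all genes with WT and 35.7% with S280D. Pacsin3 fell in WT (log2 -0.57 ± 0.15, adjusted p = 0.0236) and in S280D (-0.63 ± 0.15, adjusted p = 0.00959) against YFP. Dnm2, the ubiquitous dynamin, was lower in S280D than in S280A (-0.66 ± 0.12, adjusted p = 0.00345), a call that held without each library in turn. Dnm3 rose in WT (1.09 ± 0.25, adjusted p = 0.016) and S280D (0.97 ± 0.25, adjusted p = 0.0151) from 11.1 and 5.93 CPM with YFP. Its S280A libraries were the highest, at 22.4 and 22.6 CPM, and did not pass over YFP (1.41 ± 0.25, adjusted p = 0.113). Ehd1, a recycling endosome paralog of Ehd2, was higher in S280A than in WT (0.56 ± 0.17, adjusted p = 0.0352). It was also called lower in S280D than in YFP (log2 -0.50) and than in S280A (-0.56). In WT against YFP Ehd1 stood at -0.50 ± 0.17 and did not pass (adjusted p = 0.0568). Ehd3 and Ehd4 were not called in any comparison of this fit. With the exon length offset Ehd3 was called lower in WT and in S280D against YFP (-0.60 and -0.53, adjusted p = 0.0349 and 0.0393). Pacsin3 lost its call in WT without any 1 of the YFP or WT libraries (adjusted p up to 0.182) and in S280D without S280D replicate 1 (0.109). Dnm3 lost its call in WT without either WT library (up to 0.0887) and in S280D without YFP replicate 2 or S280D replicate 2 (up to 0.0634). The Ehd1 call in S280A against WT was lost without either WT library, S280A replicate 2 or S280D replicate 1. Its calls in S280D against YFP and against S280A were each lost without either S280D library, among others.

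Flotillins mark membrane rafts that lack caveolins. Flot1 fell in WT (log2 -0.66 ± 0.15, adjusted p = 0.0166) and S280D (-0.55 ± 0.15, adjusted p = 0.021) against YFP, and Flot2 fell in both as well (-0.44 ± 0.13 and -0.49 ± 0.13, adjusted p = 0.0413 and 0.019). Flot2 stood at 70.5 and 60.6 CPM with YFP, 48.1 and 48.6 with WT, 60.9 and 71.5 with S280A, and 44.0 and 49.2 with S280D. Anxa6, a calcium-dependent membrane binder, was higher in S280A than in WT (0.69 ± 0.13, adjusted p = 0.00877) and lower in S280D than in S280A (-0.67 ± 0.13, adjusted p = 0.00405). Of the 10 genes on this list, all tested, 2 fell in WT and 5 fell in S280D against YFP, and none rose, where 7.45% and 13.7% of all genes were called lower. The other 3 that fell in S280D were Stoml1 (-0.59 ± 0.17, adjusted p = 0.0253), Anxa2 (-0.41 ± 0.12, adjusted p = 0.0268) and Anxa6 (-0.38 ± 0.13, adjusted p = 0.0491). The Anxa2 call was lost with the exon length offset (0.0696). Each of these 5 calls in S280D was lost without YFP replicate 1 or S280D replicate 1, those of Flot1, Anxa2 and Anxa6 also without S280D replicate 2, and those of Anxa2 and Anxa6 also without either WT library, at up to 0.401. Both calls in WT were lost without YFP replicate 1 or either WT library, at up to 0.219, and that of Flot2 also without either S280D library. Anxa6 lost its call between S280A and WT without WT replicate 1 or S280A replicate 2 (up to 0.102) and between S280D and S280A without S280D replicate 1 (0.0683).

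Of 22 tested receptors, kinases and transporters known from caveolae, 3 were called higher and 2 lower in WT against YFP, or 22.7%. In S280D against YFP 4 were higher and 3 lower, or 31.8%. Among all genes 19.6% and 30.7% were called in these comparisons. Yes1, a Src-family kinase, stood at 10.7 and 10.2 CPM with YFP, 36.6 and 30.1 with WT, 12.3 and 11.3 with S280A, and 58.1 and 33.5 with S280D. The WT and S280D libraries were all higher, with S280D replicate 1 highest. Both libraries were above YFP for 32.0% of all genes with WT and 33.9% with S280D. Yes1 rose over YFP in WT (log2 1.68 ± 0.24, adjusted p = 0.00336) and in S280D (2.14 ± 0.24, adjusted p = 7.02e-04), and both calls held without each library in turn. The call in WT was lost with lane as a covariate (adjusted p = 0.0526), where the log2 value was larger and less precise, at 2.07 ± 0.31. Src itself fell in WT (-0.55 ± 0.13, adjusted p = 0.016) and in S280D (-0.39 ± 0.13, adjusted p = 0.0354). Bmpr2, a BMP receptor, rose in WT (1.00 ± 0.17, adjusted p = 0.00536) and in S280D (1.08 ± 0.17, adjusted p = 0.00184). Protein kinase C alpha (Prkca) rose as well, by 0.55 ± 0.13 with WT (adjusted p = 0.0191) and 0.54 ± 0.13 with S280D (adjusted p = 0.0126). Bmpr2 with S280D held without each library in turn, and in WT it was lost without WT replicate 1 (0.0642). Src was lost in WT without either WT library (up to 0.14) and in S280D without any 1 of the YFP, WT or S280D libraries (up to 0.319). Prkca was lost in WT without YFP replicate 1 or either WT library (up to 0.133) and in S280D without YFP replicate 1 or S280D replicate 1 (up to 0.0928). Cd36, the fatty acid translocase found in caveolae, was at 0.117 to 0.459 CPM and was not tested.

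Of 12 tested genes of sarcolemma proteins linked to CAV3, 1 was called higher and 2 lower in WT against YFP, and 3 higher and 0 lower in S280D. That is 25% in each, beside 19.6% and 30.7% of all genes. Among them dystrophin (Dmd) rose in WT (log2 0.98 ± 0.28, adjusted p = 0.0351) and S280D (1.68 ± 0.28, adjusted p = 0.00238) against YFP. Its libraries held 5.45 and 9.45 CPM with YFP, 14.5 and 15.0 with WT, 7.72 and 5.23 with S280A, and 28.8 and 19.0 with S280D. Dmd is a long transcript, at 13961 bases of exon, and with the exon length offset its value in WT was 0.59 (adjusted p = 0.0662) and in S280D 1.16 (adjusted p = 0.00245). Dysf, the membrane repair protein dysferlin, was higher in S280A than in WT (0.55 ± 0.13, adjusted p = 0.0141). Utrn, the dystrophin paralog, rose in S280D (0.66 ± 0.19, adjusted p = 0.0249), but stood at 0.17 with the length offset (adjusted p = 0.332). With that offset Dysf and Dag1, also on this list, were called lower in S280D against YFP (-0.50 and -0.52, adjusted p = 0.0172 and 0.0135). Both were then called lower in WT against YFP too (-0.61 and -0.46, adjusted p = 0.0115 and 0.0309). The beta-sarcoglycan gene Sgcb rose in S280D (0.98 ± 0.26, adjusted p = 0.0162), and Pfkm, muscle phosphofructokinase, and Bves, a membrane protein of striated muscle, fell in WT (-0.42 ± 0.13 and -1.10 ± 0.33, adjusted p = 0.0453 and 0.0381). Dmd in WT was lost without YFP replicate 1 or either WT library (up to 0.195), and Dysf without either WT library or S280A replicate 2 (up to 0.139). Utrn was lost without YFP replicate 1 or either S280D library (up to 0.166), and Sgcb without YFP replicate 1 or S280D replicate 1 (up to 0.116). Pfkm and Bves were lost without any 1 of the YFP, WT or S280D libraries (up to 0.237).

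Over all 5 lists 65 genes were in the table and 56 were tested. The lists were chosen with earlier results of these data known, so their shares are a description. Against YFP, 5 were called higher and 9 lower in WT, and 9 higher and 13 lower in S280D, which is 25% and 39.3% of those tested beside the 19.6% and 30.7% of all genes given above. S280A against WT had 12 higher and 6 lower, or 32.1% beside 26.0%, and S280D against S280A had 11 higher and 16 lower, or 48.2% beside 39.3%. The median log2 value of the tested list genes was -0.15, -0.11, 0.13 and -0.20 in these comparisons, beside -0.01, -0.02, 0.01 and -0.01 for all genes. S280A against YFP called 0 of 56 in edgeR, with 6 at an unadjusted p under 0.05 and 1 in DESeq2. S280D against WT called 0 in both tools, with 4 at an unadjusted p under 0.05.

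With the exon length offset the lists had 4 higher and 16 lower in WT and 7 higher and 16 lower in S280D against YFP, 15 higher and 4 lower in S280A against WT, and 7 higher and 18 lower in S280D against S280A. The share of all genes called with that offset was 21.9%, 31.8%, 28% and 41.1%.

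These list counts, and those of all genes, depended on single libraries and, to unlike degrees, on the lane term. With lane as a covariate 18 of the 27 calls for S280D against S280A remained, beside 32.3% of all genes called. For WT against YFP the 14 calls became 6 without YFP replicate 1 (5.98% of all genes called), 1 or 3 without the first or second WT library (1.28% and 7.42%) and 0 once lane was a covariate (0.0725%), where 13 had an unadjusted p under 0.05. For S280D against YFP the 22 became 8 without YFP replicate 1 (12.2%), 4 or 11 without the first or second S280D library (7.24% and 20.1%) and 6 once lane was a covariate (13.3%). Those 6 were Ptrf, Prkcdbp, Bmpr2, Nosip, Yes1 and Dmd. The 18 calls for S280A against WT became 0 without WT replicate 1 or S280A replicate 2 (0.0552% and 0.0468% of all genes, with 12 and 17 list genes at an unadjusted p under 0.05), 6 without WT replicate 2 (10.2%) and 5 once lane was a covariate (8%). For S280D against S280A the 27 became 8 without S280A replicate 2 (9.78%) and 7 or 17 without the first or second S280D library (10.5% and 29.1%). The calls that held without each library in turn were Yes1 in WT against YFP, Yes1, Bmpr2 and Dmd in S280D against YFP, and Yes1, Bmpr2, Dmd, Dnm2 and Nosip in S280D against S280A. Nosip binds endothelial nitric oxide synthase and was lower in S280D than in S280A (log2 -0.84 ± 0.15, adjusted p = 0.00284).

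The Cav1 and Cav2 locus holds 4 further tested genes within 500 kb. Capza2, an actin capping subunit 356 kb from Cav2, stood at 43.8 and 64.8 CPM with YFP, 118 and 90.4 with WT, 57.5 and 40.3 with S280A, and 134 and 107 with S280D. It rose in WT (log2 0.94 ± 0.22, adjusted p = 0.0164) and S280D (1.15 ± 0.22, adjusted p = 0.00431) against YFP, where 12.2% and 17.1% of all genes were called higher. Met, the hepatocyte growth factor receptor gene, was higher in S280D than in S280A (0.83 ± 0.17, adjusted p = 0.00432) and lower in S280A than in WT (-0.57 ± 0.17, adjusted p = 0.0307), and did not pass over YFP. Tes and ST7 were not called in any comparison. Near Cav3, Srgap3 fell in WT against YFP (-1.01 ± 0.20, adjusted p = 0.00975), Lmcd1 was called in no comparison, and Rad18, a ubiquitin ligase of DNA damage tolerance, rose in WT and S280D against YFP (1.19 ± 0.26 and 1.29 ± 0.25, adjusted p = 0.0123 and 0.00495). The nearest tested genes on either side of Ehd2, Gltscr1 and Gltscr2, were not called in WT against YFP (-0.23 ± 0.13 and -0.25 ± 0.14, adjusted p = 0.235 and 0.24). Gltscr1 was called in no comparison, and Gltscr2 was lower in S280D than in YFP (-0.43 ± 0.14, adjusted p = 0.0411) and than in S280A (-0.67 ± 0.14, adjusted p = 0.00561), and higher in S280A than in WT (0.48 ± 0.14, adjusted p = 0.0312). Sae1, a SUMO activating subunit in the same window, fell in WT and S280D (-0.47 ± 0.13 and -0.51 ± 0.13, adjusted p = 0.0285 and 0.0125). The largest differences in this window were those of LOC103690015, which fell in WT and S280D against YFP (-1.61 ± 0.32 and -1.86 ± 0.32, adjusted p = 0.00864 and 0.00253), and AABR07002623.2 fell in S280D (-0.73 ± 0.17, adjusted p = 0.00932). Calls of neighbouring genes were not rerun without each library. In the same fit 19.6% of all genes were called in WT and 30.7% in S280D against YFP. The share was 26.0% in S280A against WT and 39.3% in S280D against S280A. A change shared by neighbours of a member was not tested.

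Over the 8 libraries the log2 CPM of Cav2 were most like those of Giot1 (Pearson's r = 0.992), Hsdl2 (0.992), Denr (0.990), Klhl31 (0.990) and Gsk3b (0.990), among 10001 genes with a symbol and a mean of at least 1 CPM. With RLE in place of TMM scaling Ankrd1 (0.9905) entered this group and Gsk3b left it. Giot1 was low, at 0.703 and 0.715 CPM with YFP. Denr stood at 75.5 and 65.5 CPM with YFP, 243 and 178 with WT, 148 and 113 with S280A, and 271 and 305 with S280D, which is the same order of groups as for Cav2. Gsk3b spanned a smaller range, from 151 and 154 CPM with YFP to 240 and 248 CPM with S280D. Cav1 was most like Sypl1 (0.995), Ccnd2 (0.992) and Apaf1 (0.990), and Ehd2 most like Glb1 (0.994), Scmh1 (0.991) and Mapk8ip1 (0.990). All genes share these 8 libraries with their depth, lane and length gradient, so the likeness is a description.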

How the data were processed

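Libraries were made from poly(A) RNA with a paired-end kit that keeps strand, per the labels' protocols. The authors deposited raw counts per gene of total exon, unique exon, exon-exon and intron reads, with exon length and number, as the column names state. The genome build is Rnor_6.0 per the submitters' processing notes, and the aligner, annotation and strand setting were not given in the sources used here. Table starts count from 0, so 1 was added.

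The fit used edgeR 4.0.16 under R 4.3.3 on exon counts (filterByExpr, TMM, quasi-likelihood, 1 coefficient per group over 8 libraries, 4 residual degrees of freedom, two-sided, Benjamini-Hochberg adjustment over all genes, threshold 0.05). Intron counts were fitted separately in the same way. Totals of 14018785 to 39526013 exon reads set the counting precision, and PCR copies cannot be told from separate molecules. Of 105 list symbols 103 matched, using RefSeq names of GRCr8. Genes were named by rule: the 4 members, up to 4 called genes per list and comparison, tested genes within 500 kb, and the genes most like Cav1, Cav2 and Ehd2, of which the text gives a selection. Cd36, Ehd3 and Ehd4 were chosen after their values were seen. The members and lists were chosen with earlier results of these data known. Alternatives were RLE factors, other filters, DESeq2 1.42.0, fits of 4 libraries, a replicate block, lane, unique exon reads, an exon length offset and leaving out each library. Scripts were tested on simulated data. Replicates of a group differed by more than sampling noise.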

Additional observations from a re-analysis of the deposited data

How the results depend on the processing

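With lane as a covariate, Cav1 in WT against YFP stood at -0.0044 and Cav3 in S280D against WT at -0.0078, both of the opposite sign. The lane term also ended the calls of Cav1 in S280D against S280A (0.38), Ehd2 in WT against YFP (-0.69) and Cav3 in S280A against WT (0.71), and gave Cav2 2.18 in WT and 3.31 in S280D against YFP and 1.13 in S280D against WT. No lane held both YFP and WT, and the SE of Ehd2 in WT against YFP was 0.12 without and 0.19 with that term. Called caveolar genes numbered 0 in WT and 6 in S280D against YFP and 5 in S280A against WT with that term, where 9, 1654 and 993 of 12407 genes were called in all. Ehd2 introns turned to 0.43 in WT and 0.11 in S280A against YFP. The exon length offset ended the Cav1 call in S280D against S280A (0.32). Cav1 in S280A against WT passed with no filter on low counts (-0.35) and in DESeq2 (-0.32). In S280A against YFP 1 caveolar gene was called with no filter, in DESeq2 and in the fit of 4 libraries. The lane term and the length offset each add a term to the fit, and the cause of any of these changes was not tested.

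In the fits that drop 1 library, the remaining one is taken to vary like the other groups. Cav1 then ranged from -0.0079 to 0.15 in WT against YFP, -0.42 to -0.20 in S280A against WT and 0.27 to 0.48 in S280D against S280A. Ehd2 ranged from -0.73 to -0.59 in WT against YFP, -0.69 to -0.53 in S280D against YFP, 0.63 to 0.78 in S280A against WT and -0.029 to 0.12 in S280D against WT. Cav3 ranged from 0.58 to 0.93 in S280A against WT, -0.13 to 0.19 in S280D against WT and -0.89 to -0.55 in S280D against S280A. Called caveolar genes ranged from 1 to 21 in WT, 0 to 1 in S280A and 4 to 22 in S280D against YFP, 0 to 21 in S280A against WT and 7 to 28 in S280D against S280A. Ehd2 introns ranged from -0.19 to 0.14 in WT, -0.35 to 0.083 in S280A and -0.49 to 0.023 in S280D against YFP, -0.29 to 0.13 in S280A against WT, -0.45 to 0.066 in S280D against WT and -0.38 to 0.14 in S280D against S280A.

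Replicate numbers are shared between groups, but deviations of same-numbered libraries correlated at only -0.173 to 0.205, so no pairing was assumed. With the replicate block the call of no member changed, and Ehd2 stood at -0.66 in WT against YFP. Called caveolar genes numbered 10, 19, 17 and 24 with the block where 14, 22, 18 and 27 were called without it.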
